A study of Rattus norvegicus with 17 samples.

Results

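The genes described here encode the subunits of oxidative phosphorylation in the rat meibomian gland (MG), the sebaceous gland of the eyelid that secretes the lipid of the tear film. They were taken by symbol: Nduf followed by a, b, c, s or v and a digit, Sdha to Sdhd, and every symbol starting with Uqcr, Cox4 to Cox8 or Atp5, provided that a level of at least 1 TPM, a measure of transcript abundance corrected for transcript length and library size, was reached in at least 3 rats. This gave 71 of the 17251 genes of the table, with 31 in complex I, 4 in complex II, 7 in complex III, 13 in complex IV and 16 in complex V. The rule matched 72 symbols, and the remaining one, Cox8c, a testis form of a complex IV subunit, was listed at 0 in 16 of 17 rats and reached at most 0.18 TPM. The member nearest to the limit was Atp5md, a small subunit of complex V, which reached 1 TPM in 8 rats and ranged from 0 to 2.01 TPM. Ndufa4 and Ndufa4l2 were counted with complex I by their names, although Ndufa4 is also known as a subunit of complex IV. The 13 subunits encoded by mitochondrial DNA, and Cox7a2, Cox8a, Cox8b and Cox6b2, were not analysed here.

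RNA sequencing covered the MG of 17 female rats on a Sprague-Dawley background, labelled as 10 to 12 weeks old, in 4 groups. Control WT (n = 4) and Control P1.hMR (n = 5) rats had no UVB, whereas in UVB WT (n = 3) and UVB P1.hMR (n = 5) rats the shaved upper eyelids were irradiated with UVB on 5 days. P1.hMR rats carry the human mineralocorticoid receptor (MR) gene NR3C2 under its proximal P1 promoter, which is active in every tissue that expresses MR and is therefore no model restricted to the MG, and WT rats carry no transgene. The comparisons ask how UVB changed these genes in each genotype and whether MR overexpression altered their level.

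No WT rat had any human NR3C2 transcript (0 TPM), whereas the P1.hMR rats ranged from 5.31 to 9.31 TPM. All 16 meibocyte markers were detected in every group, and their summed level ran from 43848.0 to 60747.6 TPM over all rats. Of 32 skeletal muscle markers, 27 were in the table, and these summed to 3124.2 to 5567.2 TPM in control rats and to 2392.2 to 4847.2 TPM in UVB rats, so the dissected tissue held muscle RNA. In bulk tissue, fewer cells of a type and less RNA per cell cannot be told apart.

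Oxidative phosphorylation takes place at the inner mitochondrial membrane. Complexes I and II pass electrons from NADH and succinate to ubiquinone, complex III passes them on to cytochrome c, and complex IV passes them to oxygen, while complexes I, III and IV pump protons and complex V, the ATP synthase, uses the return of these protons to make ATP. Most subunits are encoded in the nucleus and expressed in all cell types, but complex IV also has isoforms typical of heart and skeletal muscle or of lung and hypoxic tissue.

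The promoters of these genes are shown because nuclear respiratory genes are known to share binding motifs for NRF1, ETS factors such as GABP, YY1 and estrogen-related receptors (ERR). Sequences were taken from the RefSeq promoter table of the GRCr8 assembly, which holds 250 bases before and 50 bases after each transcription start and which matched 61 of the 71 members. The letters GCGCANGC (NRF1), on either strand, occurred in 20 of 61 member promoters (32.8%), in 18.6% of the 9816 matched promoters of tested genes and in 9.67% of all 27457 promoters. CCGGAAG (ETS) occurred in 16 (26.2%, against 16.9% and 9.22%), AAGATGGC (YY1) in 15 (24.6%, against 5.30% and 3.44%) and AAGGTCA (ERR) in 8 (13.1%, against 2.82% and 4.37%). CAGCTG, an E-box read by muscle transcription factors, occurred in 9 (14.8%, against 16.6% and 15.1%). At least one of the NRF1, ETS, YY1 and ERR motifs was present in 40 of 61 member promoters. The 200 bases before the start are given 5′ to 3′ for Cox7b and Atp5mc3, which rose in both genotypes, for Atp5if1 and Sdhb, which fell in P1.hMR rats, and for the muscle isoform Cox6a2, with any of the 5 motifs in capitals.
Cox7b: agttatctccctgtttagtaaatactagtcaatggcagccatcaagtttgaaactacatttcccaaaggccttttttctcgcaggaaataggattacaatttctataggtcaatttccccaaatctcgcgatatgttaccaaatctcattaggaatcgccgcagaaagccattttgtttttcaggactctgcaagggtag
Atp5mc3: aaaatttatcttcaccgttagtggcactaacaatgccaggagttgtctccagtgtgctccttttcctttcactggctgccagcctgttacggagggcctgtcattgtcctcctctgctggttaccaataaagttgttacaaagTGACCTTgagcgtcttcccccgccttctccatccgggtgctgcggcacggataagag
Atp5if1: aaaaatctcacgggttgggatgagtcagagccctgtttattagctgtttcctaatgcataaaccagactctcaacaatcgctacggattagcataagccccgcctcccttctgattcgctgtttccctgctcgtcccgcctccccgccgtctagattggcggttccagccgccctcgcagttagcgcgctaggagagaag
Sdhb: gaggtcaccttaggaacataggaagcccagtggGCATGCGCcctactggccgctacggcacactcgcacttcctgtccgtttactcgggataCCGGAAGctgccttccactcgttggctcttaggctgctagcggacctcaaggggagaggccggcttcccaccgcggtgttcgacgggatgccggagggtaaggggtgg
Cox6a2: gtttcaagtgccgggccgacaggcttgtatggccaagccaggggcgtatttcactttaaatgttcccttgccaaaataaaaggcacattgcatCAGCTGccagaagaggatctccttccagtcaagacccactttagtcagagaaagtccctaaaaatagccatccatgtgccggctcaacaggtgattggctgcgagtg
These stretches lie at chrX:75148836-75149035, plus strand, at chr3:79220665-79220864, minus strand, at chr5:150026678-150026877, minus strand, at chr5:158547734-158547933, plus strand, and at chr1:192219717-192219916, minus strand. In these 200 bases, Atp5mc3 held the ERR letters at position -57 before the start, Sdhb held the NRF1 letters at -167 and the ETS letters at -108, and Cox6a2 held the E-box at -107. Cox7b and Atp5if1 held none of the 5 motifs there. A match describes the letters only and was not tested for binding or for a part in the changes after UVB.

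The members were among the abundant transcripts of the MG, with a median of 211.6 TPM over the 71 genes against 15.86 TPM over all 13105 genes tested. TPM is corrected for transcript length, so these levels can be set side by side. Atp5f1b, the catalytic beta subunit of the ATP synthase, was highest with a mean of 1578.49 TPM over 17 rats, followed by Cox4i1 of complex IV at 916.95 TPM. The median level was 188.5 TPM in complex I, 188.6 TPM in complex II, 223.0 TPM in complex III, 363.0 TPM in complex IV and 337.1 TPM in complex V. The 4 subunits of complex II were the most even, from Sdhb at 129.31 TPM to Sdhd at 204.42 TPM. In the other complexes a few genes lay far below the rest, and 7 members had a mean under 20 TPM.

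**Figure D1:**
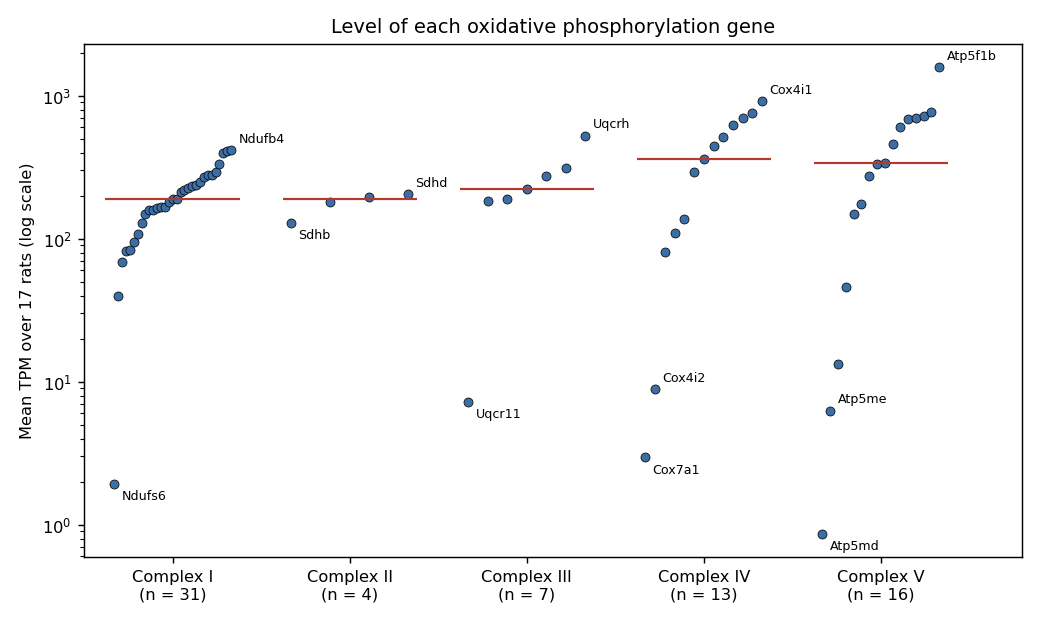
Mean TPM over 17 rats (log axis) of each of the 71 members, 1 point per gene, grouped by complex and sorted within it; the red line is the median of the complex. The decade above 100 TPM holds 56 of the 71 genes, and Ndufs6, Uqcr11, Cox7a1 and Atp5md lie lowest in complexes I, III, IV and V.

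Several of these low values are uncertain. RefSeq lists near copies of some of the genes, between which reads could be split, and whether this lowered their values was not tested. The identifier given for Ndufs6 (mean 1.94 TPM) belongs to the pseudogene Ndufs6-ps1 in RefSeq, and Atp5md has no entry under its symbol. Copies or pseudogenes carrying the gene's own name were listed for 37 of the 71 members, among them Atp5f1e, Uqcr11 and Atp5mc1. They were also listed for abundant members such as Ndufb4 and Atp5mc2, and not for the low Cox4i2, Cox7a1 and Atp5me.

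Rats of one group differed little in these genes. The coefficient of variation, averaged over the 4 groups as a root mean square, had a median of 4.81% over the 71 members and of 4.69% over the 62 members with a mean of at least 60 TPM, against 6.20% over the 2310 tested genes at or above the same level. It was lowest for Atp5mc2 (1.88%) and highest for Atp5md (81.85%), and only 8 members exceeded 20%.

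Summed over all members, the subunits made up 2.44% ± 0.023 of the TPM in Control WT rats (SD, n = 4), 2.454% ± 0.04 in Control P1.hMR rats (SD, n = 5), 2.592% ± 0.094 in UVB WT rats (SD, n = 3) and 2.469% ± 0.04 in UVB P1.hMR rats (SD, n = 5). UVB WT rats 1 and 2 summed to 21860.6 and 22322.4 TPM, above all other rats, while UVB WT rat 3, at 20457.4 TPM, lay within the range of the control groups (19531.4 to 20696.0 TPM). In WT rats the mean sum under UVB was 9.47% higher for complex V, 8.96% higher for complex IV, 5.29% higher for complex I and 1.85% higher for complex III, with a change of -2.23% for complex II. In P1.hMR rats it was 3.07% higher for complex V and 2.93% higher for complex IV, with changes of -0.37% for complex I, -4.44% for complex III and -7.6% for complex II. Complex II gave 715.2 to 748.9 TPM in Control P1.hMR rats and 659.6 to 690.3 TPM in UVB P1.hMR rats, so these 2 groups did not overlap. UVB WT rats ran from 655.5 to 749.6 TPM for complex II, and the lowest of them lay below every UVB P1.hMR rat. The sums are described without a test, since the abundant genes dominate them.

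**Figure D2:**
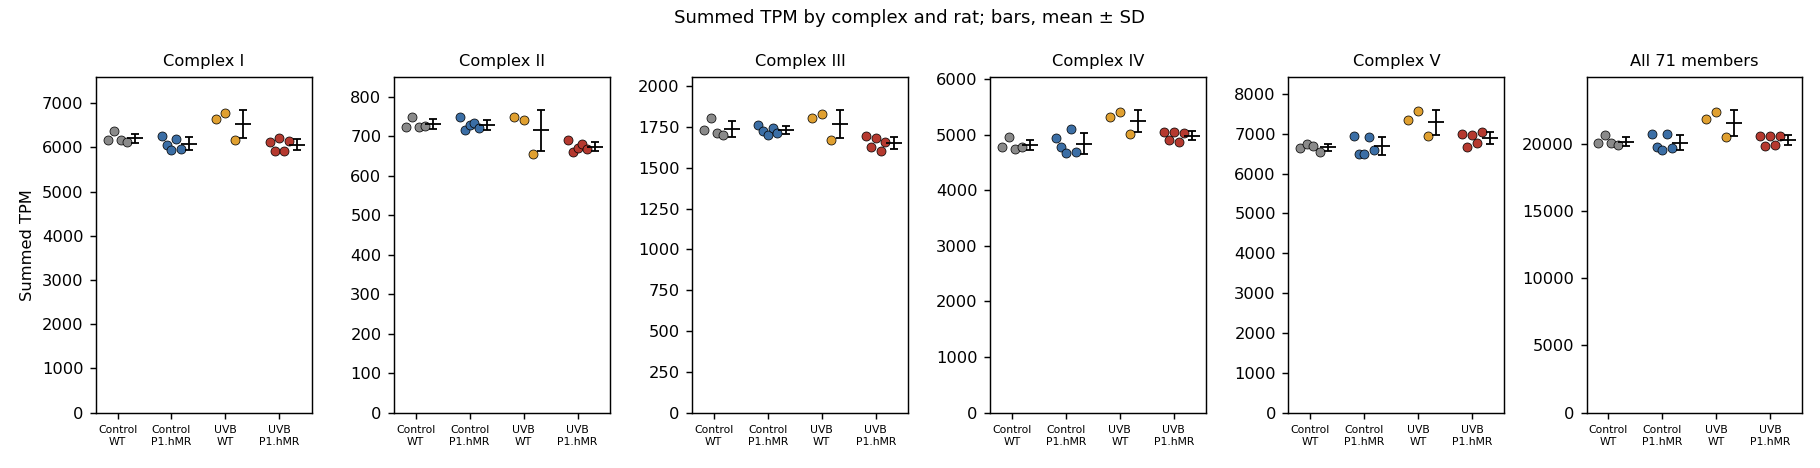
Summed TPM of the members of each complex and of all 71 members, 1 point per rat in 4 groups; bars show the mean ± SD beside each group (n = 4, 5, 3 and 5). UVB WT rats 1 and 2 lie highest for all members together (21860.6 and 22322.4 TPM), UVB WT rat 3 lies among the controls, and for complex II the UVB P1.hMR rats (659.6 to 690.3 TPM) lie below the controls of that genotype.

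In WT rats, subunits of complexes I, III, IV and V rose after UVB and none fell, by small amounts except for Atp5f1e. Testing log2(TPM + 1) of all genes with limma and Benjamini-Hochberg adjustment, 17 of 71 members were higher at an adjusted p under 0.05 (23.9%, against 11.2% of all genes tested) and 0 were lower (against 10.3%; 1 member was lower at an unadjusted p under 0.05). These 17 were 6 genes of complex I, 1 of complex III, 4 of complex IV and 6 of complex V. The median log2 fold change of the members was 0.09 against 0.01 over all genes tested, with 55 members above 0 and 16 below. The members had a lower median coefficient of variation than all genes tested (4.81% against 9.8%), and the shares were not matched for this. Only Atp5f1e also reached an absolute log2 fold change of 0.5, a threshold that 7.91% of all genes passed together with the adjusted p. The count rested in part on single rats. It was 4 without UVB WT rat 2, and 9 without UVB WT rat 1, Control WT rat 3 or Control WT rat 4. When only the 2 groups compared were fitted, 5 of 70 members were higher, against 784 of 12729 genes. The main fit had 1470 of 13105 genes higher, and the fit without Control WT rat 3 had 1128 of 13086. Compared with their own controls, 59 and 64 members were higher in UVB WT rats 1 and 2, and 35 were higher in rat 3, which also had the lowest summed skeletal muscle level of all rats (2392.2 TPM). With the mean of the skeletal muscle markers as a covariate, 23 members were higher and 0 lower in WT rats, where 9.97% and 9.03% of all genes were.

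Among subunits that take electrons into the chain, Ndufs8, an iron-sulfur core subunit, had the largest rise of complex I in WT rats. The largest estimated fall was that of the low Ndufs6 (-0.37, limma adjusted p = 0.410), which did not pass. Ndufs8 measured 65.33, 68.25, 64.3 and 61.99 TPM in Control WT rats and 76.5, 81.73 and 70.12 TPM in UVB WT rats. The 2 groups did not overlap, and the log2 fold change was 0.22 ± 0.05 (standard error; limma adjusted p = 0.00901). Without UVB WT rat 2 it was 0.17 with a limma adjusted p of 0.0544, so this call rested on that rat, and it was also lost when only the 2 groups were fitted (adjusted p = 0.0616). In P1.hMR rats the same gene gave 71.45, 63.4, 66.26, 65.42 and 68.55 TPM without and 64.56, 66.01, 68.16, 66.04 and 70.54 TPM with UVB, the UVB rats lying within the range of the controls (log2 fold change 0.00, limma adjusted p = 0.983). The difference between the 2 responses was -0.22 ± 0.07 on the log2 scale and did not pass the correction (limma interaction, unadjusted p = 0.00641, adjusted p = 0.704). Ndufb11, Ndufb6, Ndufb5, Ndufs5 and Ndufb3, accessory subunits of complex I, rose in WT rats by 0.14 to 0.22 on the log2 scale. Of these, Ndufb11 passed in all 25 alternative fits (0.22 ± 0.05, limma adjusted p = 0.00770), with 162.84 to 184.52 TPM in Control WT and 191.46 to 204.15 TPM in UVB WT rats, which did not overlap. Ndufb5 passed in 22 of the 25 fits, Ndufb6 in 18, Ndufs5 in 12 and Ndufb3 in 7. In P1.hMR rats Ndufb3 and Ndufb5 rose by 0.15 and 0.13, and Ndufa13 and Ndufb10, further accessory subunits, fell by 0.14 and 0.12 on the log2 scale, calls that held in 15 and 13 of 25 fits. Ndufb4, the most abundant gene of complex I, gave 0.00 and -0.04 and did not pass. The core subunits Ndufs1 and Ndufv1, on the electron path from NADH, did not pass, with log2 fold changes of 0.00 and 0.14 in WT rats.

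Of complex II, which also serves the tricarboxylic acid cycle, 3 of 4 subunits fell in P1.hMR rats, where 20.6% of all genes tested fell. Sdhb, its iron-sulfur subunit, measured 133.71, 130.45, 126.31, 138.44 and 140.6 TPM in Control P1.hMR rats and 118.77, 112.24, 119.02, 122.75 and 119.08 TPM in UVB P1.hMR rats. All 5 UVB rats lay below all 5 controls, and the log2 fold change was -0.18 ± 0.05 (limma adjusted p = 0.00720). Sdhd, a membrane anchor, fell by 0.15 ± 0.04 on the log2 scale (limma adjusted p = 0.00573), with 206.63 to 220.31 TPM in controls and 186.78 to 195.82 TPM under UVB. Sdhc, the other anchor, fell by 0.11 ± 0.04 (limma adjusted p = 0.0424), a call that held in only 11 of 25 alternative fits and was lost, among others, under median-of-ratios scaling (adjusted p = 0.110) and with a skeletal muscle covariate (adjusted p = 0.0793). The flavoprotein Sdha did not pass, at -0.04 ± 0.04, an estimate taken from 186.54 to 209.98 TPM in controls and 187.25 to 196.19 TPM under UVB. In WT rats none of the 4 passed, and their log2 fold changes ran from -0.08 to 0.01. The difference between the 2 responses did not pass for Sdhb, Sdhd or Sdhc (limma interaction, adjusted p = 0.758, 0.758 and 0.941).

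In complex III, the catalytic iron-sulfur protein rose in both genotypes, while 2 small subunits fell in P1.hMR rats. Uqcrfs1, the Rieske iron-sulfur protein, gave 274.2, 284.14, 252.84 and 260.18 TPM in Control WT rats and 298.64, 301.0 and 290.83 TPM in UVB WT rats, and 249.0 to 266.38 TPM in Control P1.hMR against 268.28 to 284.68 TPM in UVB P1.hMR rats. Within each genotype the UVB rats lay above the controls without overlap, with log2 fold changes of 0.15 ± 0.04 in WT (limma adjusted p = 0.0196) and 0.10 ± 0.03 in P1.hMR rats (limma adjusted p = 0.0316). These calls were lost, among others, without UVB WT rat 2 (adjusted p = 0.0652) and without Control P1.hMR rat 5 (adjusted p = 0.081), respectively. In P1.hMR rats the small accessory subunits Uqcr10 and Uqcrh fell by 0.22 ± 0.06 and 0.14 ± 0.04 on the log2 scale (limma adjusted p = 0.00532 and 0.00646). Uqcrh lay between 536.51 and 556.0 TPM without and between 485.42 and 509.76 TPM with UVB in these rats, again without overlap. Uqcr10 measured 176.89 to 203.34 TPM without and 150.63 to 176.84 TPM with UVB, adjoining but not overlapping. Uqcr11, a small subunit of low level, had the largest estimated fall of complex III in P1.hMR rats, -0.41 on the log2 scale, and did not pass (limma adjusted p = 0.0911). The core proteins Uqcrc1 and Uqcrc2 did not pass in either genotype, with log2 fold changes from -0.04 to 0.13.

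In complex IV, Cox7b, a small nuclear-encoded subunit, rose in both genotypes. It measured 633.38, 674.05, 629.33 and 642.45 TPM in Control WT and 759.2, 752.07 and 738.14 TPM in UVB WT rats. In P1.hMR rats it measured 690.58, 642.42, 632.14, 686.44 and 634.83 TPM without and 774.9, 690.67, 746.72, 727.53 and 729.9 TPM with UVB. The lowest UVB P1.hMR rat (690.67 TPM) lay just above the highest control of its genotype (690.58 TPM), so neither pair of groups overlapped. The log2 fold changes were 0.22 ± 0.05 in WT (limma adjusted p = 0.00451) and 0.16 ± 0.04 in P1.hMR rats (limma adjusted p = 0.00441), and both calls held in all 25 alternative fits, including each rat left out in turn. Cox6c rose in both genotypes and Cox6a1 and Cox6b1 in WT rats, by 0.14 to 0.21 on the log2 scale. In WT rats Cox6b1 passed in 24 and Cox6a1 in 20 of 25 fits. Cox4i1 and Cox5a, abundant subunits of every cell type, did not pass in either genotype, with log2 fold changes from -0.03 to 0.06.

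Complex V gave both the largest rise past the test in both genotypes and the fall with the smallest adjusted p. Atp5mc3 is one of 3 genes, with Atp5mc1 and Atp5mc2, that encode the same mature subunit c, of which the rotating ring is built. It gave 540.54, 470.11, 605.14 and 531.59 TPM in Control WT, 617.24, 452.25, 458.06, 578.52 and 565.41 TPM in Control P1.hMR, 646.95, 739.77 and 657.78 TPM in UVB WT, and 687.75, 690.95, 679.89, 694.09 and 700.9 TPM in UVB P1.hMR rats. Every UVB rat lay above every control rat. The log2 fold change was 0.35 ± 0.10 in WT (limma adjusted p = 0.0218; not past it without Control WT rat 2, adjusted p = 0.0659, or UVB WT rat 2, adjusted p = 0.0981) and 0.38 ± 0.08 in P1.hMR rats (limma adjusted p = 0.00186). Atp5mc2 lay within a narrow band of 726.17 to 815.47 TPM, with log2 fold changes of 0.09 and 0.04 that did not pass, and Atp5mc1 stayed between 8.99 and 19.38 TPM. As a share of the 3 genes, Atp5mc3 was 41.07% ± 2.82 in Control WT, 40.79% ± 2.97 in Control P1.hMR, 45.45% ± 1.49 in UVB WT and 46.59% ± 0.34 in UVB P1.hMR rats (SD, n = 4, 5, 3 and 5), given as a description without a test.

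Atp5if1, the protein that inhibits ATP hydrolysis by complex V, fell in P1.hMR rats. It measured 743.56, 738.72, 785.38, 770.92 and 750.89 TPM in Control P1.hMR and 630.19, 633.33, 682.48, 643.22 and 658.91 TPM in UVB P1.hMR rats. These groups did not overlap, and the log2 fold change was -0.22 ± 0.04 (limma adjusted p = 0.000321), a call that held in all 25 alternative fits. In WT rats the values were 736.67, 751.1, 807.74 and 751.05 TPM without and 749.9, 703.71 and 679.24 TPM with UVB, which overlapped (log2 fold change -0.10 ± 0.05, limma adjusted p = 0.138). The difference between the 2 responses was -0.12 on the log2 scale and did not pass (limma interaction, adjusted p = 0.727). Atp5mf, a subunit of the membrane part, also fell in P1.hMR rats, by 0.19 ± 0.05 (limma adjusted p = 0.00380). In the catalytic head, Atp5f1b measured 1494.37, 1574.1, 1482.95 and 1494.61 TPM in Control WT and 1703.34, 1806.18 and 1621.41 TPM in UVB WT rats, without overlap, giving a log2 fold change of 0.18 ± 0.05 (limma adjusted p = 0.0143), a call that did not hold without UVB WT rat 2 (adjusted p = 0.0750) or when only the 2 groups were fitted (adjusted p = 0.116). Atp5f1a rose in WT rats by 0.15 ± 0.05 (limma adjusted p = 0.0298), a call that held in 19 of 25 alternative fits and was lost, among others, without UVB WT rat 2 (adjusted p = 0.125).

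Atp5f1e, the small epsilon subunit of the central stalk, varied widely between rats. It measured 24.35, 25.39, 9.13 and 21.47 TPM in Control WT, 68.61, 34.29, 53.48, 76.38 and 46.04 TPM in Control P1.hMR, 71.64, 42.93 and 86.52 TPM in UVB WT, and 42.48, 48.05, 34.08, 13.06 and 78.39 TPM in UVB P1.hMR rats. The 4 Control WT rats were below all Control P1.hMR and all UVB WT rats, while the 2 P1.hMR groups overlapped. The log2 fold change after UVB in WT rats was 1.73 ± 0.46 (limma adjusted p = 0.0146; 1.52 and adjusted p = 0.0605 without UVB WT rat 3). Against Control WT rats, Control P1.hMR rats were 1.47 ± 0.41 higher on the log2 scale, which did not pass the correction (limma unadjusted p = 0.00225, adjusted p = 0.998). Both comparisons share the Control WT rats, and the interaction of genotype and UVB was -2.24 ± 0.60 (limma unadjusted p = 0.00178, adjusted p = 0.704). A pseudogene of Atp5f1e is listed in RefSeq, and its part in these values was not tested.

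**Figure D3:**
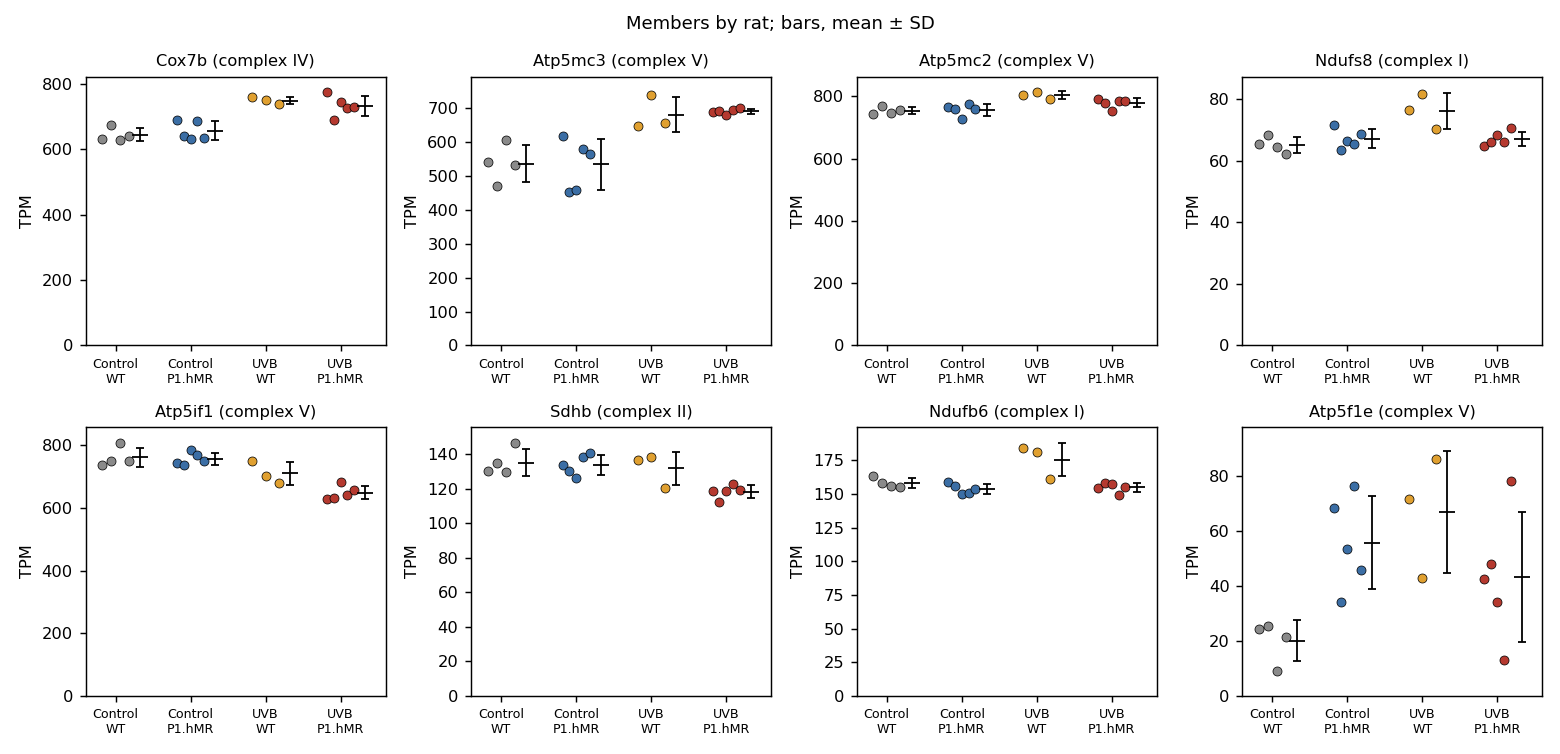
TPM by rat of 8 members in the 4 groups, with the mean ± SD beside each group; all axes start at 0. Every UVB rat lies above every control rat for Atp5mc3 (679.89 to 700.9 TPM in UVB P1.hMR against at most 617.24 TPM in controls), all UVB P1.hMR rats lie below the Control P1.hMR rats for Atp5if1 and Sdhb, and Atp5f1e spreads from 9.13 to 86.52 TPM.

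In P1.hMR rats as a whole, members moved in both directions after UVB: 9 of 71 were higher (12.7%, against 18.5% of all genes tested) and 10 lower (14.1%, against 20.6%) at a limma adjusted p under 0.05. None reached the log2 fold change of 0.5 as well (against 10.8%). At an unadjusted p under 0.05 there were 23 of 71 members, against 6244 of all 13105 genes. The largest called change was that of Cox4i2, described with the isoforms. Under median-of-ratios scaling the split was 10 higher and 7 lower, against 2698 higher and 2451 lower of 13094 genes. The fallen genes were 3 of complex II, 2 each of complexes I, III and V and 1 of complex IV, and the risen ones 4 of complex V, 2 each of complexes I and IV and 1 of complex III. The median log2 fold change of the members was 0.00 against -0.02 over all genes tested.

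In both genotypes, 7 members were higher, namely Atp5mc3, Atp5po, Cox6c, Cox7b, Ndufb3, Ndufb5 and Uqcrfs1. These were 41.2% of the 17 members that rose in WT and 77.8% of the 9 that rose in P1.hMR rats. No member was called in opposite directions. The same overlap over all genes tested was not counted, so these shares do not mark the members out from other genes. Several of these calls were weak: of 25 alternative fits, Ndufb3 passed in 7 in WT, Cox6c in 20 in WT and 7 in P1.hMR, Atp5po in 17 and 15, and Uqcrfs1 in 20 and 18, whereas Cox7b passed in all 25 in both genotypes. Averaged over genotypes, 19 members were higher and 7 lower at a limma adjusted p under 0.05 (26.8% and 9.86%, against 23.3% and 24% of all genes tested). With the skeletal muscle covariate the averaged split was 27 higher and 2 lower, where 21.1% and 21.5% of all genes were higher and lower.

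**Figure D4:**
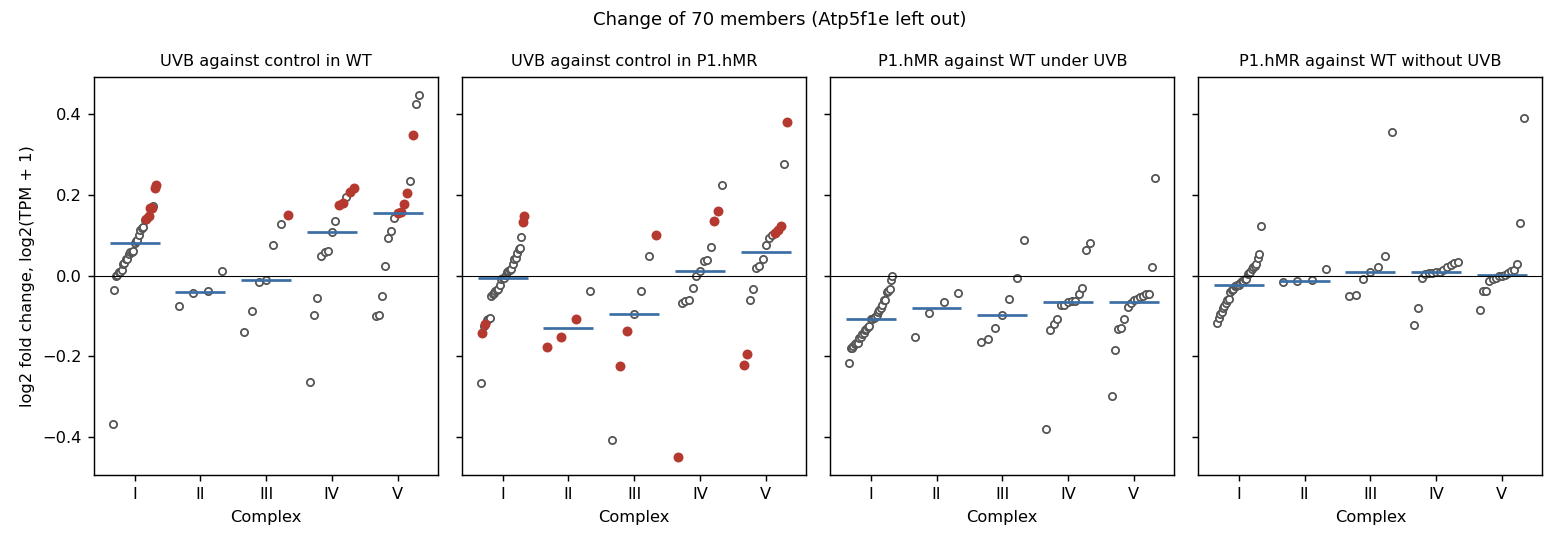
Log2 fold change on the log2(TPM + 1) scale of 70 members by complex in the 4 comparisons, 1 point per gene; filled red points have a limma adjusted p under 0.05 and blue lines are the medians of all members of the complex. Atp5f1e is left out of the points because its changes (1.73, -0.51, -0.77 and 1.47) exceed the axis. In UVB-exposed rats nearly all points of P1.hMR against WT lie below 0 (66 of 71 members), with none past the adjusted p.

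Under UVB, most estimates for P1.hMR against WT rats lay slightly below 0, and no member passed the correction. At a limma adjusted p under 0.05, 0 of 71 members passed (against 0.0305% of all genes tested), whereas 26 were lower at an unadjusted p under 0.05 (36.6%, against 6.94%) and 0 were higher. This count depended on single rats, being 9 without UVB WT rat 2, 11 without UVB WT rat 1 and 41 without UVB WT rat 3. For these fits no share of all genes is set beside the count. Under median-of-ratios scaling it was 15 of 71, against 660 of 13094 genes. All 31 complex I genes had a log2 fold change below 0, and 66 of 71 members did, with a median of -0.09 against -0.02 over all genes tested. Of the complex I genes, the low Ndufs6 gave -0.0002 and Ndufs1 gave -0.01. Complex I supplied 15 of the 26, with medians of -0.11 in complex I, -0.08 in complex II, -0.10 in complex III, -0.06 in complex IV and -0.06 in complex V. Under median-of-ratios scaling 63 of 71 members lay below 0, with a median of -0.07 against 0.00 over all genes. This comparison shares the UVB WT rats with the UVB comparison in WT rats.

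Ndufb6, an accessory subunit of complex I, had the smallest p of these. It gave 184.2, 181.31 and 161.37 TPM in UVB WT and 154.14, 157.93, 157.73, 149.15 and 155.52 TPM in UVB P1.hMR rats. The groups did not overlap, but UVB WT rat 3 (161.37 TPM) lay closer to the highest UVB P1.hMR rat (157.93 TPM) than to the other UVB WT rats. The log2 fold change was -0.18 ± 0.04 (limma unadjusted p = 0.000684, adjusted p = 0.226). Without UVB WT rat 3 the median of the members was -0.15 and 2 members passed, Ndufb6 at -0.24 (limma adjusted p = 0.0121) and Uqcrb at -0.19 (adjusted p = 0.0493). Without UVB WT rat 2 the median was -0.06 and no member passed the adjusted p.

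Without UVB, the estimates for P1.hMR against WT lay on both sides of 0. No member passed a limma adjusted p under 0.05 (against 0.00763% of all genes tested), and 1, Atp5f1e, had an unadjusted p under 0.05 (against 4.03%). With 33 members above 0 and 38 below, the median log2 fold change was 0.00. The interaction of genotype and UVB also called 0 members (against 0% of all genes tested), and 62 of 71 estimates were below 0. At an unadjusted p under 0.05, 11 members (15.5%) had a lower response in P1.hMR rats and 0 a higher one. Of all 13105 genes, 572 had a lower response, and 6.92% passed in either direction. The count of 11 became 5 without UVB WT rat 2, 6 without UVB WT rat 1 and 25 without UVB WT rat 3. Without Control P1.hMR rat 1 it was 7, against 605 of 13089 genes. Under median-of-ratios scaling it was 5, against 461 of 13094 genes.

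For 3 tissue isoforms the level could be set against that of the form used in most cells. Cox6a2, the isoform of heart and skeletal muscle, measured 84.51, 130.19, 99.64 and 83.37 TPM in Control WT, 104.15, 107.51, 75.1, 147.68 and 81.23 TPM in Control P1.hMR, 164.82, 108.33 and 78.75 TPM in UVB WT, and 121.32, 125.17, 150.25, 80.81 and 119.98 TPM in UVB P1.hMR rats. All groups overlapped. It made up 9.35% to 16.69% of the TPM of Cox6a2 and Cox6a1 together. Cox4i2, the isoform of lung and hypoxic tissue, was 0.57% to 1.23% of Cox4i2 and Cox4i1, and Ndufa4l2, a paralogue induced by hypoxia and found in pericytes, was 8.68% to 14.49% of Ndufa4l2 and Ndufa4. Cox7a1, another muscle isoform, stayed between 1.94 and 3.85 TPM, and its common partner was not analysed here.

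No ratio of an isoform to its partner passed in any of the 4 comparisons, tested on log2((isoform + 1)/(partner + 1)) with two-sided exact permutation tests and Benjamini-Hochberg adjustment over 12 tests. The smallest p was that of Cox4i2 after UVB in P1.hMR rats, a difference of -0.42 (exact permutation p = 0.0556, adjusted p = 0.667). The smallest p that these group sizes allow was 0.0571 for UVB in WT rats, 0.0357 for genotype under UVB, 0.0159 for genotype without UVB and 0.00794 for UVB in P1.hMR rats. After adjustment over 12 tests, a ratio changed on its own could reach no less than 0.0953 in any comparison, so that it could not have passed. As a single gene, Cox4i2 gave 10.08, 7.16, 11.0, 10.93 and 9.98 TPM in Control P1.hMR and 8.22, 5.04, 9.54, 5.53 and 6.85 TPM in UVB P1.hMR rats, which overlapped. Its log2 fold change was -0.45 ± 0.15 (limma adjusted p = 0.0280), and the call was lost without Control P1.hMR rat 1, 3, 4 or 5 or UVB P1.hMR rat 2 or 4 (adjusted p up to 0.0775, without UVB P1.hMR rat 2). The 9 measured pericyte and smooth muscle markers summed to 597.1 to 839.2 TPM in Control P1.hMR and 592.1 to 668.0 TPM in UVB P1.hMR rats, and none was at 0; their part in the fall of Cox4i2 was not tested.

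The level of Cox6a2 was set beside that of other muscle transcripts. Ckm, the muscle creatine kinase, ran from 346.62 to 647.56 TPM in control rats and from 192.87 to 454.31 TPM in UVB rats, and the median log2 fold change of the 26 tested skeletal muscle markers was -0.27 for the WT groups and -0.17 for the P1.hMR groups. Of these markers, 1 was higher and 3 were lower after UVB in WT, and 2 were higher and 4 lower in P1.hMR rats, at a limma adjusted p under 0.05. As shares of the list these were 3.85% and 11.5% in WT and 7.69% and 15.4% in P1.hMR rats, against 11.2% and 10.3% and against 18.5% and 20.6% of all genes. Acta1, skeletal actin, had means of 768.3 and 745.44 TPM without and with UVB in WT and of 765.24 and 806.27 TPM in P1.hMR rats. Cox6a2 had log2 fold changes of 0.19 ± 0.26 and 0.22 ± 0.21, which did not pass (limma adjusted p = 0.627 and 0.427). With the mean of the skeletal muscle markers as a covariate, the estimate for UVB against controls was 0.51 ± 0.13 in WT (limma adjusted p = 0.0114). In P1.hMR rats it was 0.42 ± 0.10 (limma adjusted p = 0.00480). These estimates hold at an equal marker mean and are not changes in the level of Cox6a2. The markers themselves differed after UVB, with the medians of -0.27 and -0.17 given above. Chosen after the values were seen and given without a test, Cox6a2 as a percentage of Ckm was 17.2% to 23.4% in control rats and 31.0% to 40.8% in UVB rats without overlap, whereas as a percentage of Acta1 it was 11.6% to 15.4% and 12.9% to 19.1%, which overlapped. Against Mylpf, a myosin light chain, it was 16.6% to 23.4% and 24.1% to 29.2%, without overlap, and against Myh4, a fast myosin heavy chain, it was 27.0% to 36.4% and 32.7% to 47.9%, which overlapped.

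**Figure D5:**
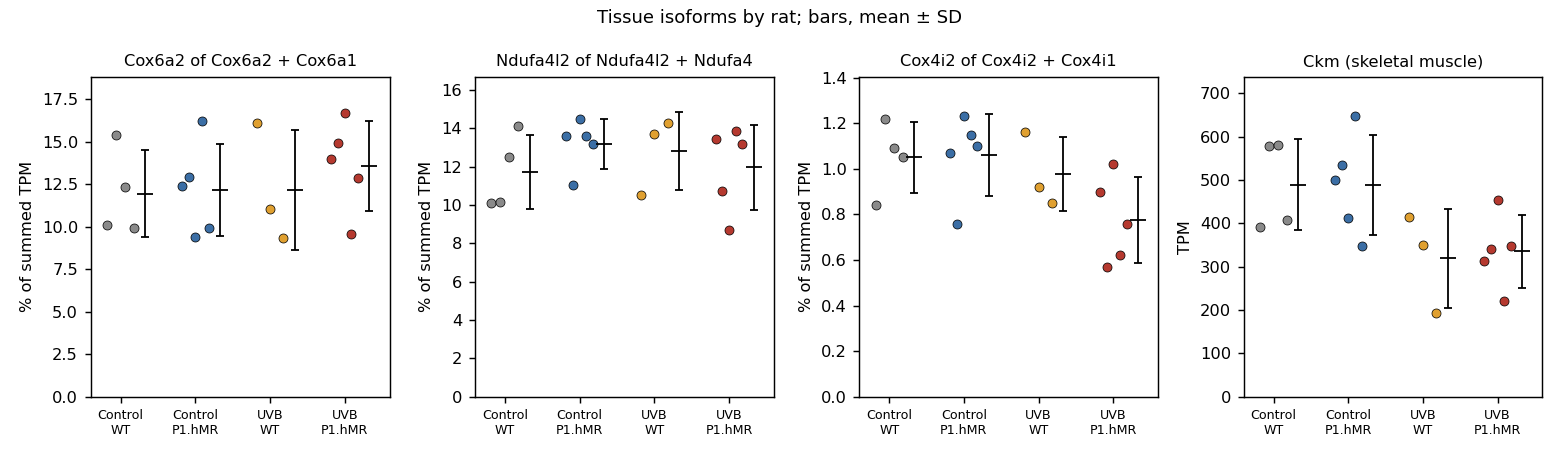
Share of Cox6a2, Ndufa4l2 and Cox4i2 in the summed TPM with their partner genes, and TPM of the muscle creatine kinase Ckm, by rat in 4 groups with the mean ± SD beside each; all axes start at 0. The shares overlap between all groups, from 9.35% to 16.69% for Cox6a2, while Ckm ranges lower in UVB (192.87 to 454.31 TPM) than in control rats (346.62 to 647.56 TPM).

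Genes that build, feed or regulate the chain were described from lists of the same pathways. Of 13 tested subunits and carriers outside the symbol rule, 5 rose in WT (38.5%, against 11.2% of all genes tested) and 4 in P1.hMR rats (30.8%, against 18.5%). In both genotypes 0 fell (against 10.3% and 20.6%). The risen ones included Cyc1 of complex III (log2 fold change 0.26 and 0.14) and Slc25a5, an ADP/ATP carrier (0.29 and 0.33), all past a limma adjusted p under 0.05. Cycs, the mobile cytochrome c, rose in P1.hMR rats by 0.42 (limma adjusted p = 0.000419). Of 38 tested assembly factors, 6 rose and 0 fell in WT (15.8% and 0%, against 11.2% and 10.3%). In P1.hMR rats 6 rose and 4 fell (15.8% and 10.5%, against 18.5% and 20.6%), both below the shares of all genes. Ndufaf4, needed for complex I assembly, rose by 0.35 and 0.52, and Atpaf2, needed for the catalytic head of complex V, by 0.36 and 0.21. Ndufaf3, its partner in complex I assembly, fell by 0.27 in P1.hMR rats on the log2 scale. The shares of all genes set beside these counts are those given for the members.

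Among 20 tested genes of mitochondrial import and folding, 7 rose in WT (35%, against 11.2% of all genes tested) and 8 in P1.hMR rats (40%, against 18.5%). In both genotypes 0 fell (against 10.3% and 20.6%). The risen genes included the chaperonins Hspd1 (0.34 and 0.37) and Hspe1 (0.28 and 0.26). The tricarboxylic acid cycle list gave 2 and 4 risen genes of 16 (12.5% and 25%, against 11.2% and 18.5%), among them Pdhb of pyruvate dehydrogenase in both genotypes (0.21 and 0.17). Of 17 tested regulators of mitochondrial biogenesis, 3 rose and 2 fell in WT (17.6% and 11.8%, against 11.2% and 10.3%). In P1.hMR rats 5 rose and 1 fell (29.4% and 5.88%, against 18.5% and 20.6%). Ppargc1a, the coactivator PGC-1alpha, fell by 0.74 in WT (limma adjusted p = 0.0235) and by 0.93 in P1.hMR rats (limma adjusted p = 0.000769) on the log2 scale. Tfam and Tfb2m, which serve transcription of mitochondrial DNA, rose in both genotypes, by 0.15 and 0.23 in WT and by 0.11 and 0.31 in P1.hMR rats.

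Of 20 tested genes of glycolysis, 6 rose and 2 fell in WT (30% and 10%, against 11.2% and 10.3% of all genes), and 8 rose and 3 fell in P1.hMR rats (40% and 15%, against 18.5% and 20.6%). Their median log2 fold change was 0.11 in each genotype. Pkm, pyruvate kinase, had log2 fold changes of 0.53 and 0.58, and Ldha, a lactate dehydrogenase subunit, of 0.42 and 0.56, whereas its partner Ldhb had -0.28 and -0.47, all past a limma adjusted p under 0.05. None of the genes on these lists passed the adjusted p for genotype, with or without UVB, or for the interaction. Over the same UVB rats the keratinocyte markers summed to 11464.5 to 15795.7 TPM against 10346.3 to 12931.6 TPM in control rats, and the meibocyte markers to 43848.0 to 53116.1 TPM against 49271.3 to 60747.6 TPM. Abundant genes dominate these sums. By limma adjusted p under 0.05, 4 of 16 meibocyte markers rose and 6 fell in WT (25% and 37.5%, against 11.2% and 10.3% of all genes). In P1.hMR rats 2 rose and 5 fell (12.5% and 31.2%, against 18.5% and 20.6%). Of 8 keratinocyte markers, 3 rose and 1 fell in WT (37.5% and 12.5%), and 4 rose and 1 fell in P1.hMR rats (50% and 12.5%). The part of these cell types in the changes of the members was not tested.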

How the data were processed

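MG RNA from 17 rats was sequenced, and the authors deposited 1 table of TPM for 17251 genes, 1 column per rat, with a decimal comma. The methods of the study name FastQC, STAR on rn7 and RSEM, whereas the submitters' processing notes list rn7, FastQC, Trimmomatic, DRAGEN and Picard. TPM keeps no counts, so depth is unknown, no counting interval was computed, and precision comes from the spread between rats. The deposited TPM columns summed to 804378 to 840817. Between 12372 and 12737 genes per rat reached 1 TPM.

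Groups came from the labels. Log2(TPM + 1) was fitted for 13105 genes, those reaching 1 TPM in 3 or more rats, with limma 3.58.1 in R 4.3.3, in 1 model with a mean per group and a variance trend, and p-values (two-sided) were Benjamini-Hochberg adjusted over all genes. Calls used an adjusted p under 0.05, with or without an absolute log2 fold change of 0.5. Fold changes on this scale understate low genes. Isoform ratios used exact permutation tests in Python 3.11.15 with scipy 1.17.1. The model was tested on simulated data.

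Named genes were the members called with the fold change threshold, the tissue isoforms and their partners, in each complex the highest and lowest member and the largest rise and fall in each comparison, a fixed set of core subunits, the subunit c genes and Atp5if1. From the other lists, a selection of the genes past the adjusted p is named, not all of them. Members outside this rule, which passed the adjusted p alone, and Cox6a2 against Ckm, Acta1, Mylpf and Myh4, were named after their values were seen. The members and lists were chosen with earlier results of these data known. Markers not in the table were not analysed here. Alternatives were a pseudocount of 0.1, no filter, a mean of at least 5 TPM, median-of-ratios scaling, fits of the 2 groups compared, no variance trend, a replicate block, a skeletal muscle covariate, no fold change threshold, and each rat left out. Promoters were searched with Python for letters on both strands, with 1 promoter, the first listed, per gene.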

Additional observations from a re-analysis of the deposited data

Results flagged for a closer look

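Among 44 measures (38 named members and 6 sums) in the 3 groups with 4 or 5 rats, 132 groups were searched for a rat far from the others by Dixon's ratio of its gap to the range. In 10 of them a rat stood apart, and chance flags about 1 in 20 groups. Control WT rat 2 stood apart for Atp5f1b (1574.1 TPM, nearest rat 1494.61 TPM), for Ndufv3 (104.71 TPM, nearest 108.62 TPM), and for the summed TPM of complex II (749.9, nearest 727.4) and of complex IV (4956.0, nearest 4777.1). Control WT rat 3 was low for Uqcrc2, at 172.67 TPM against 188.84 TPM in the nearest rat. Control P1.hMR rat 1 was high for Ndufv1 (199.24 TPM, nearest 184.33 TPM) and for Uqcrc1 (327.15 TPM, nearest 307.25 TPM). Control P1.hMR rat 2 was low for Cox4i2 (7.16 TPM, nearest 9.98 TPM) and for Ndufa4l2 (31.85 TPM, nearest 42.11 TPM). UVB P1.hMR rat 5 was high for Cox7a1, at 3.63 TPM against 2.77 TPM.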

How the results depend on the processing

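Depth is unknown from TPM, and groups of 3 to 5 rats set the precision. Members called with the fold change threshold were 1 for UVB in WT rats (2 with the skeletal muscle covariate, 17 with no fold change threshold, 0 to 1 with each rat left out), 0 for UVB in P1.hMR rats (19 with no fold change threshold, 0 to 1 with each rat left out) and 0 for UVB averaged over genotypes (26 and 0 to 1). The added gene was Cox6a2 with the covariate, Cox4i2 without Control P1.hMR rat 2, UVB P1.hMR rat 1 or UVB P1.hMR rat 3, and Atp5f1e in the averaged effect without UVB P1.hMR rat 4. By adjusted p alone, the count for UVB in WT rats was 17, 5 when only the 2 groups compared were fitted, and 4 to 18 with each rat left out. For UVB in P1.hMR rats it was 19, 11 without the variance trend, and 10 to 20 with each rat left out, and 12 without Control P1.hMR rat 2 or 5 or UVB P1.hMR rat 2 or 5 and 10 without Control P1.hMR rat 3. For P1.hMR against WT under UVB it was 0, and 0 to 2 with each rat left out, with 2 without UVB WT rat 3. The averaged count ran from 22 to 28 with each rat left out. Same-numbered samples did not deviate together (22 pairs, median correlation -0.005), and the replicate block gave 13, 15 and 25 members for UVB in WT, in P1.hMR and averaged. Of the 41 single results recomputed, 0 reversed in 1023 recomputations, 838 kept their side of the threshold, 184 fell short of it and 1 newly passed it, with limma adjusted p. The cause of these changes was not tested.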

Other observations

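Both mitochondrial ribosomal RNAs are in the table under AY172581.24 and AY172581.9, and they were looked at after their values were seen. AY172581.24 measured 284.38 ± 33.5 TPM in Control WT (SD, n = 4), 224.37 ± 91.05 TPM in Control P1.hMR (SD, n = 5), 347.3 ± 41.94 TPM in UVB WT (SD, n = 3) and 361.06 ± 20.58 TPM in UVB P1.hMR rats (SD, n = 5). AY172581.9 measured 439.34 ± 48.17, 342.25 ± 114.67, 436.06 ± 30.09 and 502.08 ± 35.07 TPM in the same groups. Ucp1, the uncoupling protein of brown fat, stayed at or below 0.37 TPM in all rats.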
